A study of Caenorhabditis elegans with 12 samples.

Results

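The 10 genes described here encode components of TGF-beta signalling in Caenorhabditis elegans that control dauer entry and body size. They were chosen by gene name from a table of 46936 genes: daf-7 and dbl-1 (ligands), daf-1 and daf-4 (receptors), daf-8, daf-14, daf-3, sma-2 and sma-3 (Smads) and daf-5 (a Smad cofactor). All 10 were in the table, and all 10 passed the filter on low counts. RNA of whole worms was sequenced in 12 libraries, 3 of each genotype: a wild-type control, a gain-of-function mutant of skn-1 (skn-1gf), a loss-of-function mutant of daf-2 (daf-2lf) and the double mutant carrying both (daf-2lf;skn-1gf). The labels name no allele, no age and no stage at harvest. All groups were fed the E. coli strain OP50 on NGM plates (nematode growth medium). SKN-1 is a transcription factor of detoxification and oxidative stress responses, and DAF-2 is the insulin/IGF-1 receptor, whose loss extends lifespan and, like loss of DAF-7, can commit larvae to the dauer stage. The study set out to compare the transcriptome of the double mutant with that of daf-2lf.

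TGF-beta ligands bind a complex of type I and type II receptor kinases, which phosphorylate receptor-regulated Smads that then act on transcription together with a common Smad. In the dauer pathway, the ligand DAF-7 is secreted by the ASI sensory neurons when conditions favour growth and signals through the type I receptor DAF-1 and the type II receptor DAF-4. Its Smads DAF-8 and DAF-14 oppose the common Smad DAF-3 and its Ski-family partner DAF-5, so that loss of the ligand, a receptor or DAF-8 or DAF-14 causes dauer arrest, whereas loss of DAF-3 or DAF-5 prevents that arrest. In the body size pathway, the BMP-like ligand DBL-1, made mainly in neurons, signals through DAF-4 and the type I receptor SMA-6 to the Smads SMA-2, SMA-3 and SMA-4, and loss of these components makes worms small. DAF-4 therefore serves both pathways.

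The genes are spread over the genome, and the coordinates that follow are those of the deposited table, whose chromosome accessions are those of the WBcel235 assembly. On chromosome III, which holds 4 of them, lie daf-7 (identifier 175237, 811844 to 813773, plus strand), daf-4 (175781, 5625135 to 5632322, plus), sma-3 (175955, 6860974 to 6863968, minus) and sma-2 (176229, 8749680 to 8757089, plus). Chromosome IV holds daf-1 (176829, 132416 to 138081, plus) and daf-14 (177908, 10250627 to 10255852, plus). The remaining genes are daf-8 on chromosome I (187612, 8584424 to 8587507, minus), daf-5 on II (175054, 14033220 to 14037721, minus), dbl-1 on V (179068, 6758135 to 6760418, plus) and daf-3 on X (180431, 817922 to 825475, minus). The table annotates the TGF-beta-like ligand domain in daf-7 and dbl-1 and a kinase domain in daf-1 and daf-4. Of the 5 Smad genes, 4 carry the DNA-binding MH1 domain beside MH2, and daf-14 carries MH2 alone. Deposited lengths run from 1272 bases for daf-14 to 3177 for daf-3, and the Ensembl annotation of the same assembly gives 1 transcript for daf-7, daf-8, dbl-1 and sma-3, 7 for daf-4 and 9 for daf-3.

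Library totals ranged from 16779245 to 29346039 counts, and the 10 genes had between 28 and 1882 counts in a library. Levels are given as CPM, counts divided by the library total in units of 1000000 counts, scaled by the trimmed mean of M-values (TMM), means are given with their SD over 3 libraries, and differences were tested with edgeR's quasi-likelihood test, adjusted over the 15575 genes that passed the filter. A gene is called at an adjusted p under 0.05. Nothing in the labels says that the replicates came from separate cultures, so p-values measure the spread between these libraries, which may be technical. Library daf-2lf replicate 1 stood apart from its group, since the departure of its genes from replicates 2 and 3 ran with gene length. Spearman's rho was -0.58 across genes, against -0.20 to 0.13 in the 9 libraries of other genotypes. For the 10 genes, calls that move with the omission of this library are given with and without it. For the pathway lists, the counts that move are given both ways. The RNA of the mutated genes does not test a gain or loss of function. The mean of skn-1 was 118 CPM in the wild-type libraries, 149 in those of skn-1gf, 171 in those of daf-2lf and 220.1 in those of the double mutant. That of daf-2 was 67.4 CPM in wild type, 91.8 in skn-1gf and 127 in the double mutant, and in daf-2lf the libraries had 26.8, 125 and 126 CPM, with replicate 1 the low one.

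**Figure D1:**
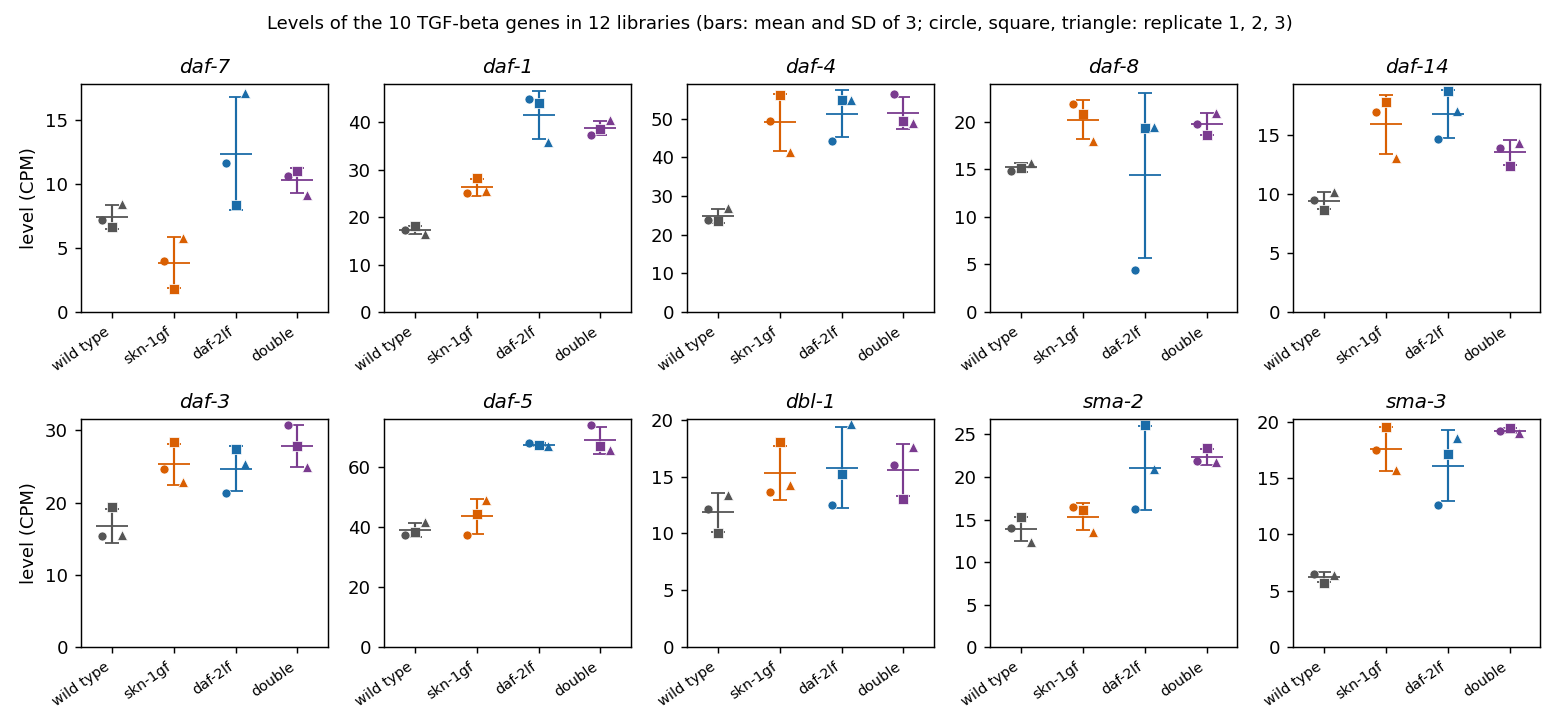
Levels of the 10 genes in CPM (vertical axes, each from 0) in the 4 genotypes, with replicates 1, 2 and 3 as circle, square and triangle and bars for the mean and SD of 3 libraries. Wild type lay lowest for daf-4, daf-1 and sma-3, skn-1gf lay lowest for daf-7, and daf-8 had a single low library at 4.36 CPM, daf-2lf replicate 1.

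Of the 10 genes, 6 changed in skn-1gf and 7 in daf-2lf against wild type, with 1 fall among them, and none was called between the double mutant and daf-2lf. In skn-1gf, 5 of the 10 rose (sma-3, daf-4, daf-14, daf-1 and daf-3) and 1 fell (daf-7). Over all genes tested 43.6% were called in that comparison, 22.6% as rises and 21% as falls. In daf-2lf, 7 rose (sma-3, daf-1, daf-4, daf-14, daf-5, sma-2 and daf-3) and 0 fell, where 52.3% of all genes were called, 29.5% as rises and 22.9% as falls. The double mutant against daf-2lf gave 0 calls among the 10, with 1.62% of all genes called, 1.01% as higher and 0.616% as lower. Against skn-1gf, 4 genes were higher in the double mutant (daf-7, daf-5, daf-1 and sma-2) and 0 lower, where 31.7% of all genes were called, 13.4% as higher and 18.4% as lower.

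The libraries themselves separated as follows. Of the 10 genes, 7 had all 3 skn-1gf libraries above the highest wild-type one and 1 had them below the lowest, against 34.2% and 33.2% of all genes tested. In daf-2lf 7 lay wholly above wild type and 0 wholly below, against 31.9% and 29.3%. The double mutant lay wholly above daf-2lf in 1 gene (sma-3) and wholly below it in 1 (daf-14), against 11.5% and 12.2%. It lay wholly above skn-1gf in 4 and wholly below it in 0, against 26.2% and 30.2%.

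The median log2 change of the 10 genes against wild type was 0.50 in skn-1gf and 0.76 in daf-2lf, beside 0.03 and 0.15 over all genes tested. It was 0.02 in the double mutant against daf-2lf, beside 0.00, and 0.13 against skn-1gf, beside -0.04. Scaling by relative log expression (RLE) in place of TMM moved the median of all genes from 0.03 to -0.13 in skn-1gf and from 0.15 to -0.03 in daf-2lf. The share of all calls that were rises then went from 51.8% to 40.4% in skn-1gf and from 56.3% to 45.2% in daf-2lf. Among the 10 genes, RLE left the calls in skn-1gf at 5 higher and 1 lower and reduced those in daf-2lf from 7 to 5, all of them rises, with daf-3 and sma-2 no longer called. Without daf-2lf replicate 1 the median of all genes was -0.07 in skn-1gf and 0.00 in daf-2lf, and the calls among the 10 were 6 higher and 1 lower in skn-1gf and 7 higher in daf-2lf. That fit called 60.1% and 59.5% of its 15840 tested genes in these comparisons.

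**Figure D2:**
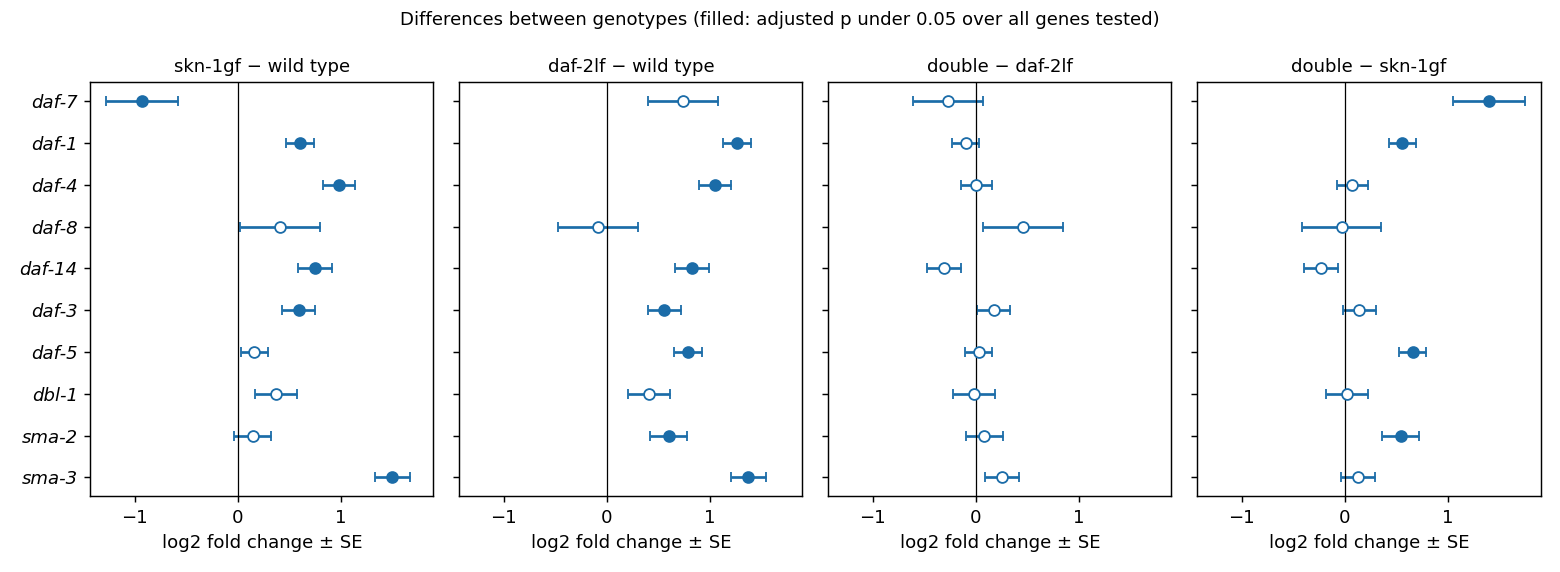
Log2 fold change with its standard error (horizontal axes) of each gene in 4 comparisons, filled where the adjusted p was under 0.05 over all genes tested. All called genes but daf-7 in skn-1gf lie to the right of 0, and all 10 symbols are open where the double mutant is set against daf-2lf.

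The ligand gene daf-7 was the only one of the 10 that fell in either single mutant. Its level was 7.18, 6.60 and 8.45 CPM in the wild-type libraries, 3.95, 1.79 and 5.76 in skn-1gf, 11.6, 8.37 and 17.05 in daf-2lf and 10.6, 10.999 and 9.14 in the double mutant. All 3 skn-1gf libraries lay below all 3 wild-type ones, whereas daf-2lf overlapped wild type through its replicate 2. The mean of 3.83 ± 1.99 CPM in skn-1gf against 7.41 ± 0.951 in wild type was a fitted ratio of 0.525 (log2 -0.93, SE 0.35, edgeR adjusted p = 0.0493). The double mutant, at 10.3 ± 0.985 CPM, was 2.63-fold higher than skn-1gf (log2 1.40, SE 0.35, edgeR adjusted p = 0.00871), and daf-2lf differed from wild type by 0.74 (SE 0.34, adjusted p = 0.0872).

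The fall of daf-7 in skn-1gf lies close to the threshold. It was lost in 9 of 19 alternative analyses, over log2 changes of -1.34 to -0.60 and adjusted p-values of 0.00117 to 0.142. Without skn-1gf replicate 2, in which daf-7 had 28 counts, the difference was -0.60 (adjusted p = 0.142). It was also lost on leaving out skn-1gf replicate 1 or any library of wild type or of the double mutant, at -1.01 to -0.83 log2. The difference between the double mutant and skn-1gf was called in all 19 alternatives. Of the genes listed here for the ASI neurons that make DAF-7, gpa-4, unc-3, ins-6 and daf-28 were tested. The remaining one, str-3, was too low for testing, at 0 counts in every wild-type library. These genes need not be made in ASI alone, so their levels in whole worms do not measure ASI by itself. In skn-1gf gpa-4 and unc-3 rose, and ins-6 and daf-28 differed by -0.40 and -0.44 log2 without passing the test. The daf-28 level in skn-1gf replicate 2, 2.43 CPM, was also the lowest of that genotype, beside 4.22 and 8.74. All 4 rose in daf-2lf against wild type, daf-28 not without daf-2lf replicate 1 (0.85, adjusted p = 0.113), and all 4 were higher in the double mutant than in skn-1gf. Of all genes tested, 29.5% rose in daf-2lf and 13.4% were higher in the double mutant than in skn-1gf. In whole worms, a smaller share of a cell type in the total RNA and less RNA of a gene per cell cannot be told apart.

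The other ligand gene, dbl-1, had the smallest ratio of the 10 between its highest and lowest mean over all libraries, at 1.33. Next was daf-8 at 1.40, whose lowest mean, that of daf-2lf, includes replicate 1 at 4.36 CPM. The order of these genes rests on that library. Wild type had a mean of 11.8 ± 1.71 CPM, skn-1gf one of 15.3 ± 2.39, daf-2lf one of 15.8 ± 3.55 and the double mutant one of 15.5 ± 2.29. The skn-1gf libraries, at 13.7 to 18.1 CPM, lay just above the wild-type ones, at 10.01 to 13.4, and those of daf-2lf, at 12.5 to 19.6, overlapped them. No comparison was called, with 0.37 log2 (SE 0.20, adjusted p = 0.164) in skn-1gf and 0.41 (SE 0.20, adjusted p = 0.110) in daf-2lf. The latter was called in 2 of 19 alternatives. A p above the threshold does not show that the genotypes had the same level.

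The receptor genes rose in both single mutants. For daf-4, the type II receptor of both pathways, the libraries had 23.9, 23.5 and 26.9 CPM in the wild-type libraries, 49.4, 56.3 and 41.5 in skn-1gf, 44.4, 54.9 and 54.8 in daf-2lf and 56.4, 49.5 and 48.9 in the double mutant. Wild type lay apart below all mutant libraries, and the 3 mutant genotypes overlapped one another. The rise was 1.98-fold in skn-1gf (log2 0.98, SE 0.15, edgeR adjusted p = 4.2e-04) and 2.07-fold in daf-2lf (log2 1.05, SE 0.15, adjusted p = 1.3e-04). The double mutant differed from daf-2lf by 0.01 log2 (SE 0.15) and from skn-1gf by 0.07 (SE 0.15).

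For daf-1, the type I receptor of the dauer pathway, the genotypes formed steps. The libraries had 17.3, 18.2 and 16.4 CPM in the wild-type libraries, 25.1, 28.3 and 25.5 in skn-1gf, 44.8, 44.1 and 35.7 in daf-2lf and 37.3, 38.6 and 40.4 in the double mutant. No skn-1gf library overlapped one of the other genotypes, while daf-2lf and the double mutant overlapped. The gene rose 1.52-fold in skn-1gf (log2 0.61, SE 0.13, edgeR adjusted p = 0.00390) and 2.41-fold in daf-2lf (log2 1.27, SE 0.14, adjusted p = 9.9e-06), and was 1.47-fold higher in the double mutant than in skn-1gf (log2 0.56, SE 0.13, adjusted p = 0.00642). The calls of daf-1 and daf-4 against wild type held in all 19 alternatives, and that of daf-1 in the double mutant against skn-1gf in 18, a per-library length trend giving 0.44 (adjusted p = 0.180, over a range of 2.4e-06 to 0.180).

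Among the receptor-regulated Smads, sma-3 of the body size pathway changed most. It had 6.50, 5.68 and 6.42 CPM in the wild-type libraries, 17.5, 19.5 and 15.7 in skn-1gf, 12.6, 17.2 and 18.6 in daf-2lf and 19.2, 19.4 and 18.9 in the double mutant. Every mutant library was above every wild-type one. The rise was 2.83-fold in skn-1gf (log2 1.501, SE 0.17, edgeR adjusted p = 3.8e-05) and 2.59-fold in daf-2lf (log2 1.37, SE 0.17, adjusted p = 3.5e-05), and held in all 19 alternatives in each. The 3 double mutant libraries lay above those of daf-2lf, by 0.25 log2 (SE 0.17), and the adjusted p was 0.477.

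Its partner sma-2 was changed less. The libraries had 14.05, 15.3 and 12.4 CPM in the wild-type libraries, 16.5, 16.1 and 13.5 in skn-1gf, 16.2, 26.1 and 20.9 in daf-2lf and 21.8, 23.5 and 21.8 in the double mutant. The libraries of daf-2lf and of the double mutant lay above those of wild type, and those of skn-1gf overlapped wild type. The rise in daf-2lf was 1.52-fold (log2 0.60, SE 0.18, edgeR adjusted p = 0.0145) and was lost in 6 of 19 alternatives, at 0.42 to 0.52 log2, among them RLE scaling, DESeq2 and the fits without wild-type replicate 3 or daf-2lf replicate 2. The double mutant was 1.46-fold above skn-1gf (log2 0.54, SE 0.18, adjusted p = 0.0366), a call lost in 8 of 19 alternatives, 7 of which left out wild-type replicate 1 or a library of these genotypes (0.45 to 0.57). In skn-1gf the difference from wild type was 0.14 log2 (SE 0.18, adjusted p = 0.547) with TMM and -0.02 with RLE.

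The dauer pathway Smad daf-14 had 9.52, 8.67 and 10.1 CPM in the wild-type libraries, 16.9, 17.7 and 13.04 in skn-1gf, 14.6, 18.7 and 16.99 in daf-2lf and 13.9, 12.3 and 14.3 in the double mutant. All mutant libraries lay above wild type, and those of the double mutant lay below those of daf-2lf. The rise was 1.68-fold in skn-1gf (log2 0.75, SE 0.17, edgeR adjusted p = 0.00382) and 1.78-fold in daf-2lf (log2 0.83, SE 0.17, adjusted p = 0.00127), called in all 19 alternatives in each. The difference of -0.31 log2 (SE 0.16) between the double mutant and daf-2lf had an unadjusted p of 0.0826 and an adjusted p of 0.401. It was called in 1 of 19 alternatives, limma-voom with sample quality weights.

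Its partner daf-8 was the gene most affected by daf-2lf replicate 1. The libraries had 14.8, 15.1 and 15.7 CPM in the wild-type libraries, 21.9, 20.7 and 17.9 in skn-1gf, 4.36, 19.3 and 19.5 in daf-2lf and 19.8, 18.6 and 20.9 in the double mutant. Apart from that one low library, all mutant libraries lay above all wild-type ones. In daf-2lf replicate 1 daf-8 was 2.13 log2 units lower than the mean of replicates 2 and 3, and only 2.88% of the 1872 genes within 10 percent of its length departed further downwards.

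No comparison of daf-8 was called in the edgeR fit of all libraries. The differences were 0.41 log2 (SE 0.39, adjusted p = 0.412) in skn-1gf and -0.08 (SE 0.39, adjusted p = 0.871) in daf-2lf. Without daf-2lf replicate 1 they were 0.32 (adjusted p = 0.0164, over a range of 2.8e-04 to 0.634) and 0.25 (adjusted p = 0.0711, over a range of 0.0284 to 0.952). The spread is shared by all genotypes in the fit, so this library bears on both. The fit of skn-1gf and wild type alone called daf-8 as well (0.41, adjusted p = 0.0260). Limma-voom with sample quality weights gave daf-2lf replicate 1 a weight of 0.0366, the lowest of the 12 libraries, so that library counted for little. It called daf-8 in skn-1gf (0.52, adjusted p = 2.8e-04), in daf-2lf (0.33, adjusted p = 0.0284) and for the difference of the skn-1gf effects (-0.49, adjusted p = 0.0144, over a range of 0.0144 to 1.000).

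**Figure D3:**
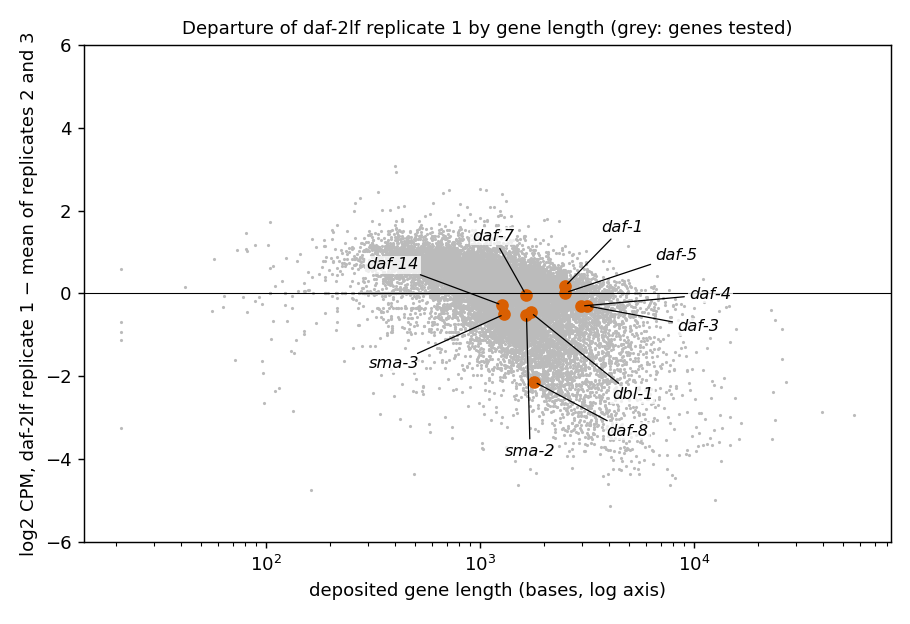
Departure of daf-2lf replicate 1 from the mean of daf-2lf replicates 2 and 3 in log2 CPM (vertical axis) against deposited gene length in bases (horizontal log axis), with tested genes in grey and the 10 genes in orange. The grey cloud falls with length, daf-8 lies at -2.13, and the other 9 genes lie between -0.52 and 0.18.

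Of the antagonists of the dauer pathway Smads, daf-3 rose in both single mutants and daf-5 in daf-2lf. The common Smad daf-3 had 15.3, 19.4 and 15.5 CPM in the wild-type libraries, 24.6, 28.3 and 22.9 in skn-1gf, 21.4, 27.4 and 25.3 in daf-2lf and 30.7, 27.8 and 24.98 in the double mutant. Wild type lay below all mutant libraries, which overlapped one another. The rise was 1.51-fold in skn-1gf (log2 0.59, SE 0.16, edgeR adjusted p = 0.0118) and 1.47-fold in daf-2lf (log2 0.56, SE 0.16, adjusted p = 0.0119). These calls were lost in 2 and 5 of 19 alternatives. Leaving out wild-type replicate 1 ended both (0.53 and 0.50 log2), and leaving out wild-type replicate 3 ended the second (0.51).

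The Ski-family gene daf-5 was higher in both genotypes with daf-2lf. It had 37.4, 38.3 and 41.7 CPM in the wild-type libraries, 37.5, 44.6 and 49.0 in skn-1gf, 68.1, 67.3 and 67.2 in daf-2lf and 74.2, 66.9 and 65.7 in the double mutant. The 6 libraries with daf-2lf lay above the 6 without it, and skn-1gf overlapped wild type. The rise in daf-2lf was 1.73-fold (log2 0.79, SE 0.13, edgeR adjusted p = 3.9e-04), called in all 19 alternatives, and the double mutant was 1.58-fold above skn-1gf (log2 0.66, SE 0.13, adjusted p = 0.00219), called in 18, the per-library length trend giving 0.54 (adjusted p = 0.0599, over a range of 2.2e-07 to 0.0599). The difference of skn-1gf from wild type was 0.16 log2 (SE 0.13, adjusted p = 0.352).

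Compared per kilobase of deposited length, daf-5 had the highest mean level of the 10 in every genotype, at 15.6 ± 0.907 CPM per kilobase in wild type and 26.9 ± 0.187 in daf-2lf. In wild type none of its libraries overlapped those of the next gene, daf-8, at 8.48 ± 0.252. From daf-8 downwards each gene's libraries overlapped those of the next one, through sma-2, daf-4, daf-14, daf-1, dbl-1, daf-3 and sma-3 to daf-7 at 4.504 ± 0.578. In skn-1gf daf-4 stood next to daf-5, at 16.5 ± 2.48 against 17.4 ± 2.31 CPM per kilobase, and overlapped it. The ligand daf-7 had the lowest level in all 4 genotypes, and its libraries overlapped those of the gene above it in wild type and daf-2lf but not in skn-1gf, at 2.33 ± 1.21, or the double mutant, at 6.24 ± 0.599. The level of sma-3 moved from the ninth place in wild type, at 4.75 ± 0.345, to the third in skn-1gf, at 13.5 ± 1.47.

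The effect of skn-1gf differed between the backgrounds for 4 of the 10 genes. These were sma-3, daf-14, daf-4 and daf-1, each of which rose with skn-1gf in the wild-type background. The difference, the effect in the daf-2lf background minus that in the wild-type background, was -1.25 log2 for sma-3 (SE 0.24, edgeR adjusted p = 0.00291) and -1.06 for daf-14 (SE 0.23, adjusted p = 0.00657). It was -0.98 for daf-4 (SE 0.22, adjusted p = 0.00687) and -0.71 for daf-1 (SE 0.19, adjusted p = 0.0175). All 4 were negative, where 27.7% of all genes tested had a called difference, 17.7% a negative one and 9.91% a positive one. These calls held in all 18 alternatives for sma-3, daf-14 and daf-4 and in 17 for daf-1, which was lost without the low-count filter (-0.59, adjusted p = 0.114, over a range of 1.2e-04 to 0.114).

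The same contrast reads as the daf-2lf effect with skn-1gf minus that without it, which was 0.07 against 1.05 log2 for daf-4 and 0.13 against 1.37 for sma-3. The other 6 genes gave differences from -0.42 log2 for daf-3 (SE 0.23, adjusted p = 0.183) to 0.66 for daf-7 (SE 0.48, adjusted p = 0.326). For daf-7 the effect of skn-1gf was -0.93 log2 in the wild-type background and -0.27 (SE 0.34) in the daf-2lf background, and these were not distinguishable with the spread of its libraries. Under RLE the share of all called differences that were positive went from 35.8% to 48.3%, and the 4 genes stayed negative.

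**Figure D4:**
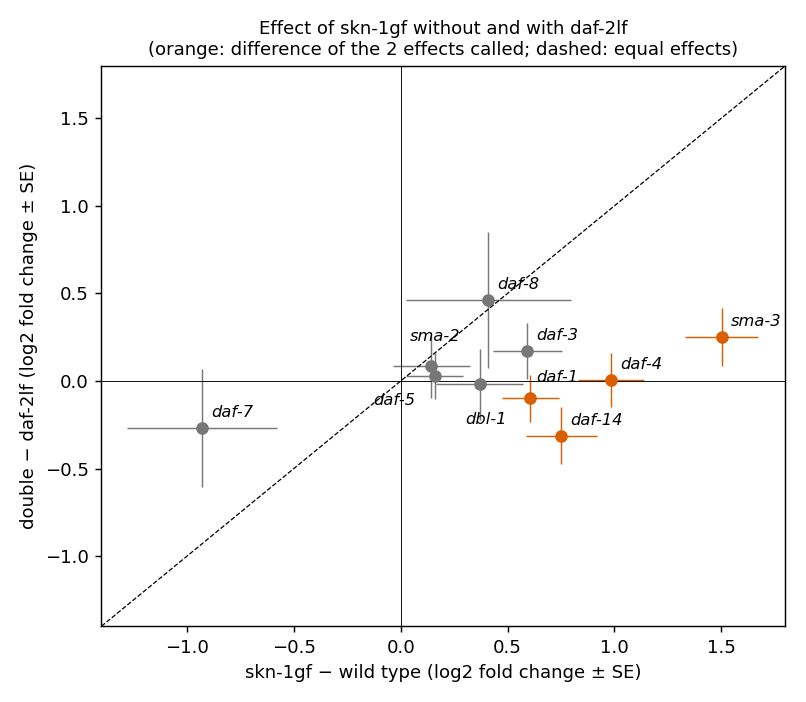
Log2 effect of skn-1gf in the wild-type background (horizontal axis) and in the daf-2lf background (vertical axis) with standard errors, in orange where the difference of the effects was called. The orange genes sma-3, daf-4, daf-14 and daf-1 lie below the dashed line of equal effects, at 0.61 to 1.501 on the horizontal axis and -0.31 to 0.25 on the vertical.

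In the comparison that the study names, the double mutant against daf-2lf, none of the 10 genes had an unadjusted p under 0.05. The lowest was that of daf-14 (0.0826), and DESeq2 also called 0. Of all genes, 2317 had an unadjusted p under 0.05. The log2 differences ran from -0.31 for daf-14 to 0.46 for daf-8 (SE 0.39). The standard errors of the 8 genes other than daf-7 and daf-8 were 0.13 to 0.20. Counts were also drawn from the mean of each gene over all libraries, with known changes added to 200 genes. There the procedure called 48% of genes changed 2-fold and 97% of those changed 4-fold in this comparison, over 15304 genes. The drawn counts held no departure by gene length like that of daf-2lf replicate 1. These shares therefore do not give how often such changes would be found between the real libraries.

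Part of the counts is uncertain where genes overlap, since the handling of strand is not stated. No gene of the table overlaps daf-7, daf-8, daf-3, daf-5 or sma-3. The collagen gene col-99 on the opposite strand shares 108 of the 2505 exonic bases of daf-1 and held counts equal to 138% of those of daf-1. It differed by 0.00 log2 in skn-1gf and rose by 0.57 in daf-2lf. F01G10.9 shares 111 of the 1272 exonic bases of daf-14 on the opposite strand and held counts equal to 320% of those of daf-14. It differed by -0.45 and -0.35 log2, not called. For sma-2, the AMP kinase gene aak-1 shares 100 of 1702 exonic bases on the opposite strand and held counts equal to 132% of those of sma-2. It fell by 1.78 log2 in daf-2lf, opposite to sma-2, and also fell in skn-1gf (-0.66). The gene tomm-70, also on the opposite strand, shares 0 exonic bases and held counts equal to 637% of those of sma-2. It rose by 0.75 log2 in skn-1gf (edgeR adjusted p = 0.0220). Within daf-4, the non-coding gene C05D2.11 on the same strand shares 0 exonic bases, held counts equal to 32.5% of those of daf-4, and rose by 1.17 log2 in skn-1gf and 1.31 in daf-2lf, with a called difference of the skn-1gf effects of -1.31. For dbl-1 the overlapping gene held 0.908% of its counts.

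Other genes of these pathways were followed in 5 lists, whose 57 tested genes gave 19 rises and 8 falls in skn-1gf and 25 rises and 4 falls in daf-2lf. The shares called, 47.4% and 50.9%, were near the 43.6% and 52.3% of all genes tested. Without daf-2lf replicate 1 they were 63.8% and 65.5% of 58 genes, beside 60.1% and 59.5%. Their median log2 change was 0.38 and 0.53, beside the 0.03 and 0.15 of all genes tested. The lists were drawn from general knowledge, and lon-1 and mab-21 stand in 2 of them. The other TGF-beta ligands behaved alike: unc-129, which guides axons, and tig-2 both rose, by 0.88 (SE 0.17) and 0.99 log2 (SE 0.16) in skn-1gf and by 0.97 (SE 0.17) and 0.82 (SE 0.16) in daf-2lf. Both had a called negative difference of the skn-1gf effects (-0.93 and -0.83), as had the receptor gene daf-4. The third, tig-3, was too low to test.

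Of the 18 other genes listed for the body size pathway, 7 rose and 2 fell in skn-1gf, and 7 rose and 0 fell in daf-2lf. That makes 50% and 38.9% of the list beside 43.6% and 52.3% of all genes. The largest rises in skn-1gf were those of mab-21, which acts in male tail patterning (1.86 log2, SE 0.23, edgeR adjusted p = 6.5e-05), the tetraspanin gene tsp-21 (1.22) and mab-31 (1.11). In daf-2lf they were mab-21 (1.502), mab-31 (1.05) and bra-1 (0.97). The last stands in this list although its product binds DAF-1, the type I receptor of the dauer pathway. The type I receptor gene sma-6 differed by 1.18 log2 (SE 0.47, adjusted p = 0.0587) and 0.89 (SE 0.47, adjusted p = 0.125), without passing the test. Its libraries had 17.03, 18.01 and 22.1 CPM in the wild type, 42.6, 52.4 and 34.8 in skn-1gf and 8.37, 55.8 and 42.2 in daf-2lf, with daf-2lf replicate 1 alone below wild type. Without that library sma-6 was called at 1.09 (SE 0.16, adjusted p = 2.4e-04) and 1.26 (SE 0.17, adjusted p = 1.2e-04). The Smad gene sma-4, the transcription factor gene sma-9, sma-10 and unc-40 were likewise lowest in that library, and without it sma-9 and sma-10 were called in skn-1gf (0.33 and 0.46) and daf-2lf (0.59 and 0.502). The list then gave 10 rises and 3 falls in skn-1gf and 11 rises and 2 falls in daf-2lf. That was 72.2% called in each, beside 60.1% and 59.5% of all genes tested. In the double mutant against skn-1gf, 2 were higher, tsp-14 (1.496) and the DBL-1-repressed gene lon-1 (0.97). The differences of the skn-1gf effects were called for mab-21 (-1.52), bra-1 (-1.27), mab-31 (-1.20) and, in the positive direction, lon-1. The shares called were 11.1% in the double mutant against skn-1gf and 22.2% for these differences, beside 31.7% and 27.7% of all genes tested. Without daf-2lf replicate 1 the list gave 8 genes higher and 1 lower in the double mutant against skn-1gf, and 2 positive and 7 negative differences, sma-6 among the latter (-1.59, adjusted p = 6.2e-04). That was 50% called in each, beside 46.2% and 37.4% of all genes tested.

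Among 19 tested genes of the sensory and dauer functions around daf-7, 4 rose and 1 fell in skn-1gf and 7 rose and 1 fell in daf-2lf. That made 26.3% and 42.1% of the list, fewer than the 43.6% and 52.3% of all genes tested. In skn-1gf the largest changes were in osm-5, a gene of ciliary transport (2.09 log2), daf-6, which shapes the channel around sensory endings (-1.24), and the transcription factor gene unc-3 (0.96). In daf-2lf they were in unc-3 (1.803), the pheromone receptor gene daf-38 (1.36) and the channel gene tax-4 (-1.32), a call that was lost in 4 of 19 alternatives, among them the fit without daf-2lf replicate 1 (-1.32, adjusted p = 0.0608, over a range of 0.00944 to 0.169). Without that library 6 rose and 1 fell in skn-1gf and 8 rose and 0 fell in daf-2lf, 36.8% and 42.1% beside 60.1% and 59.5% of all genes tested. The double mutant exceeded skn-1gf in 6 genes, with the insulin-like gene daf-28 (1.55), daf-6 (1.46) and the serotonin synthesis gene tph-1 (1.29) first. The call of tph-1 was lost in 6 of 19 alternatives and that of daf-28 in 1. The 6 higher genes made 31.6% of the list and 0 were lower, beside 13.4% of all genes tested called higher and 31.7% called either way. The only called difference of the skn-1gf effects in the fit of all libraries was that of daf-6 (1.44), which was lost in 6 of 18 alternatives. It made 5.26% of the list, beside 27.7% of all genes tested. Without daf-2lf replicate 1, 10 genes were higher and 1 lower in the double mutant against skn-1gf. That fit called differences of the skn-1gf effects for daf-6 (1.19), osm-5 (-2.13) and che-2 (-1.28, edgeR adjusted p = 0.04998). These shares were 57.9% and 15.8% of the list, beside 46.2% and 37.4% of all genes tested.

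The next list held 11 tested genes, of dauer hormone synthesis and response and of the insulin pathway. The latter were daf-2 itself, age-1, pdk-1, akt-1, akt-2, daf-18 and daf-16. Of the 11, 4 rose and 1 fell in skn-1gf and 5 rose and 1 fell in daf-2lf. That made 45.5% and 54.5% of the list, beside 43.6% and 52.3% of all genes tested. The cytochrome P450 gene daf-9, whose product makes the hormone that prevents dauer arrest, rose from 3.84 ± 0.896 CPM in wild type to 14.4 ± 1.78 in skn-1gf and 28.5 ± 2.52 in daf-2lf (log2 1.90, SE 0.19, and 2.88, SE 0.20, edgeR adjusted p = 1.4e-05 and 3.3e-07), and stood at 36.7 ± 3.38 in the double mutant. Next in skn-1gf were daf-36 (1.14), also of hormone synthesis, and the kinase gene akt-1 (-0.96), and in daf-2lf the kinase gene pdk-1 (1.78) and daf-12, the receptor of that hormone (1.41). The call of akt-1 in skn-1gf was lost in 5 of 19 alternatives. In the double mutant against skn-1gf, 6 were higher and 1 lower, led by pdk-1 (1.53), daf-9 (1.35) and daf-12 (1.30). That made 63.6% of the list, beside 31.7% of all genes tested. The difference of the skn-1gf effects was called for daf-9 (-1.54), daf-36 (-1.02) and the PI3-kinase gene age-1 (0.79), 27.3% of the list beside 27.7% of all genes tested. The call of daf-36 was lost in 8 of 18 alternatives (-1.46 to -0.82) and that of age-1 in 6 of 18, with the per-library length trend giving 0.0612 for age-1 (adjusted p = 0.908, over a range of 9.3e-05 to 0.908). Without daf-2lf replicate 1 the list gave 6 rises and 3 falls in skn-1gf and 7 rises and 2 falls in daf-2lf. That made 81.8% called in each, beside 60.1% and 59.5% of all genes tested. In that fit 9 genes were higher and 1 lower in the double mutant against skn-1gf, and 3 positive and 4 negative differences of the skn-1gf effects were called. These made 90.9% and 63.6% of the list, beside 46.2% and 37.4% of all genes tested.

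The 9 tested genes reported to respond to DBL-1 did not move together. The share called was 88.9% in skn-1gf and 77.8% in daf-2lf, beside 43.6% and 52.3% of all genes tested. It was 66.7% in the double mutant against skn-1gf and for the difference of the skn-1gf effects, beside 31.7% and 27.7%. In skn-1gf 3 rose and 5 fell, led by the cuticle collagen genes col-142 (4.35 log2), lon-3 (-3.24) and rol-6 (-2.40). In daf-2lf 5 rose and 2 fell, led by col-41 (6.03), col-142 (4.81) and col-141 (2.82). For col-41, the wild-type libraries had 6.87, 6.55 and 63.8 CPM, the third apart from the others, and each daf-2lf library had 1362 CPM or more. In the double mutant against skn-1gf 5 were higher and 1 lower, led by col-41 (4.47), rol-6 (2.68) and the desaturase gene fat-7 (-2.54). Differences of the skn-1gf effects were called in 6, led by col-142 (-3.93), lon-3 (3.38) and rol-6 (1.79). Collagens form a multigene family, and how shared reads were counted is not stated.

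Between the double mutant and daf-2lf edgeR called 0 of the 57 genes, of which 9 had an unadjusted p under 0.05. Limma-voom with sample quality weights called 9, and the fit without daf-2lf replicate 3 called 2.

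**Figure D5:**
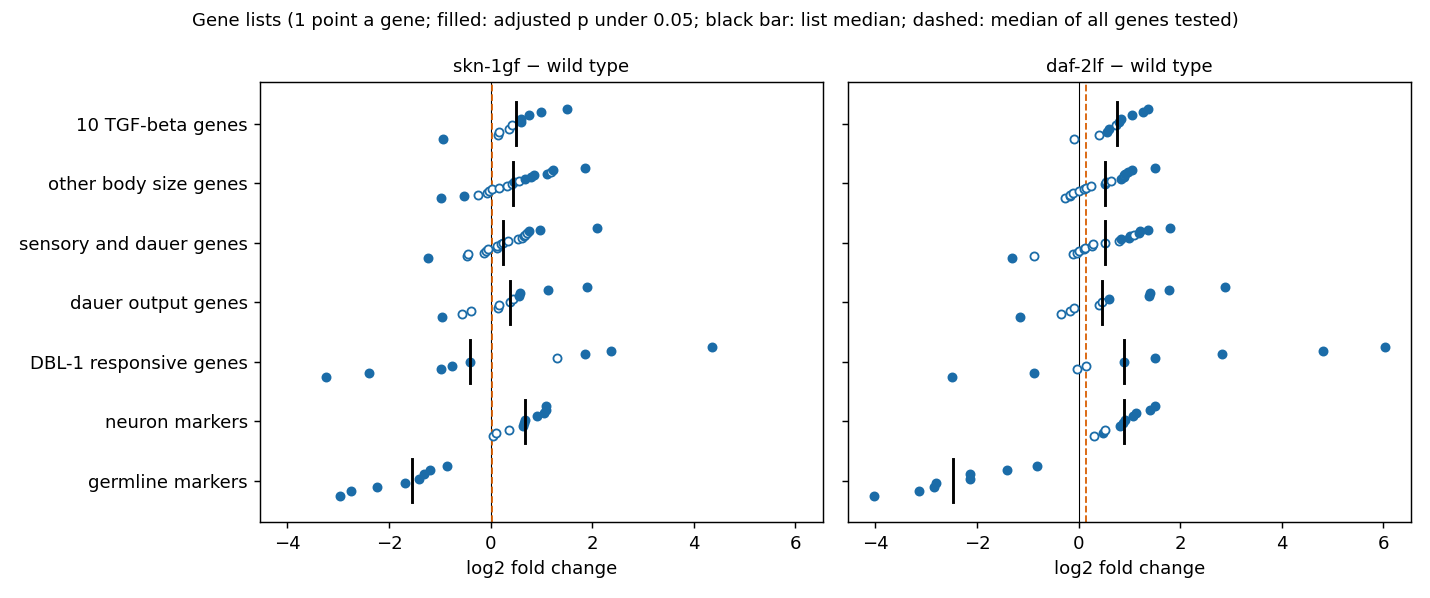
Log2 fold change (horizontal axes) of single genes by list in skn-1gf against wild type (left) and daf-2lf against wild type (right), filled where the adjusted p was under 0.05, with black bars for list medians and a dashed line for the median of all genes tested. The germline markers lie wholly below 0 and the neuron markers wholly above 0 in both panels, and the medians of the 10 TGF-beta genes are 0.50 and 0.76.

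Markers of other tissues moved in the same comparisons. Of all genes tested, 22.6% rose and 21% fell in skn-1gf, and 29.5% rose and 22.9% fell in daf-2lf. Of 10 neuron markers, 7 rose in skn-1gf and 8 in daf-2lf, and their summed level was 479 to 533 CPM in wild type, 678 to 840.0 in skn-1gf, 883 to 1053 in daf-2lf and 946 to 958 in the double mutant. Of 8 germline and oocyte markers, all fell in both, from 1602 to 1769 CPM in wild type to 358 to 1110.2 in skn-1gf, 287 to 554 in daf-2lf and 531 to 570 in the double mutant. Of 8 sperm markers, 7 fell in skn-1gf and all 8 in daf-2lf, from 323 to 372 CPM in wild type to 76.5 to 177 and 0.501 to 1.68, and 4 were at 0 in all daf-2lf libraries. All 5 intestinal markers rose in daf-2lf and 3 in skn-1gf, and their summed level was 1623 to 1839.9 CPM in wild type, 3403 to 4711 in skn-1gf and 2866 to 4500 in daf-2lf.

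Of 8 hypodermal markers, 3 rose and 2 fell in skn-1gf and 5 rose in daf-2lf, and their summed level, led by the collagen gene dpy-13, was 2318 to 2468 CPM in wild type, 666 to 821 in skn-1gf and 2710 to 3727 in daf-2lf. The 10 TGF-beta genes summed to 158 to 167 CPM in wild type, 219 to 251 in skn-1gf, 251 to 299 in daf-2lf and 281 to 300.0 in the double mutant. Of 6 body wall muscle markers, 3 rose in each single mutant, and of 5 pharynx markers 0 were called in skn-1gf and 1 rose in daf-2lf. The pharynx markers summed to 252 to 351 CPM in wild type and to 212, 54.8 and 543 CPM in skn-1gf, lowest in replicate 2, which was also the library lowest in daf-7. The part of this in the daf-7 difference was not tested. The part of tissue makeup and of stage in their changes was not tested.

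Across the 12 libraries, some of the 10 genes followed one another closely. Pearson's r of log2 CPM was 0.97 between daf-4 and sma-3, 0.92 between daf-4 and daf-3 and 0.91 between daf-1 and daf-5, and it was lowest, at -0.29, between daf-7 and daf-8. These coefficients describe libraries that share 4 genotypes and carry no test. Of 14898 protein-coding genes, those most like daf-7 were frpr-14 (r = 0.98), T21D12.7 (0.95) and F01G10.6 (0.95), and those most like dbl-1 were nhr-230 (0.94), rgef-1 (0.90) and lmd-5 (0.87).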

How the data were processed

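RNA of whole worms was extracted with TRIzol and a column kit, and libraries were built by an outside company, per the labels' protocols. The authors deposited 1 table of raw counts per gene for the 12 libraries, with gene length in bases. The aligner, the counter, strand handling and the treatment of shared reads are not given in the sources used here. The submitters' processing notes name the build ce10, whereas the chromosome accessions of the table are those of WBcel235. The coordinates of all 10 genes equal those of a RefSeq gene table of WBcel235. Exons came from the Ensembl annotation of that assembly.

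Counts were analysed in R 4.3.3 with edgeR 4.0.16: filterByExpr (minimum count 10), TMM scaling, 1 coefficient per genotype over all 12 libraries, the quasi-likelihood test and Benjamini-Hochberg adjustment over 15575 genes. A standard error is the log2 change divided by the root of its F statistic. Log2 CPM used a prior count of 2. DESeq2 1.42.0, limma 3.58.1 with sample quality weights, RLE scaling, no filter, a replicate block, the groups compared alone, a loess length trend per library and the omission of each library were alternatives. In simulated counts with 200 changed genes, 37% of those changed 2-fold and 94% of those changed 4-fold were called in daf-2lf against wild type, over 15290 genes. The adjustment depends on how many genes change, and the real comparison called 52.3% of all genes tested. These shares therefore do not give how often the reported test finds such changes. The smallest level that 3 counts can show was 0.105 to 0.191 CPM, and this covers counting error only.

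The 10 genes and the lists were chosen with earlier results of these data known. All 10 are named. Of each pathway list the up to 3 called genes with the largest change are named in each comparison, as are the 3 genes most correlated with daf-7 and dbl-1. Of 126 listed genes, 124 were matched by name. The exceptions, daf-21 and opt-2, are not used here.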

Additional observations from a re-analysis of the deposited data

Results flagged for a closer look

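The effect of skn-1gf differed between the daf-2lf background and the wild-type background for 4 of the 10 genes, by the test of the difference itself (edgeR's quasi-likelihood test with Benjamini-Hochberg adjustment over all genes tested). The difference was -1.25 log2 for sma-3 (-1.248), -1.06 for daf-14 (-1.062), -0.98 for daf-4 (-0.978) and -0.71 for daf-1 (-0.706), with adjusted p-values of 0.00291, 0.00657, 0.00687 and 0.0175. In the wild-type background the lowest skn-1gf library exceeded the highest wild-type one for each of the 4 genes, as for 34.2% of all genes tested. In the daf-2lf background the differences were 0.25, -0.31, 0.01 and -0.10 log2. A difference of the skn-1gf effects was called for 27.7% of all genes tested. The omission of daf-2lf replicate 1 left all 4 called, at -1.30, -1.06, -0.98 and -0.56, in a fit that called 37.4% of all genes tested.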

How the results depend on the processing

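Of the 50 results of the 10 genes, 21 were called, and 13 of these kept their call in every alternative run; none of the 21 changed direction. Of the 29 results not called, 15 changed sign in some alternative. In skn-1gf against wild type sma-2 was -0.0157 with RLE and -0.0162 with DESeq2. With sample quality weights daf-8 in daf-2lf against wild type was 0.33, and the double mutant minus daf-2lf was 0.11 for daf-7, -0.11 for daf-4 and -0.13 for sma-2. With the length trend the double mutant minus daf-2lf was -0.43 for daf-4, -0.30 for daf-3, -0.36 for daf-5 and -0.0476 for sma-2, and the double mutant minus skn-1gf was -0.0700 for daf-4 and -0.0148 for daf-3. The difference of the skn-1gf effects was -0.49 for daf-8 and 0.00780 for daf-5 with quality weights. It was 0.0231 for daf-5 and 0.0975 for sma-2 with RLE, 0.0225 and 0.0988 with DESeq2, and 0.0528 for sma-2 without the filter.

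With 1 library left out, the double mutant minus daf-2lf ranged from -0.0886 to 0.0569 for daf-4, -0.0262 to 0.0631 for daf-5, -0.48 to 0.0349 for daf-7, -0.16 to 0.168 for dbl-1 and -0.0733 to 0.27 for sma-2. The double mutant minus skn-1gf ranged from -0.0365 to 0.148 for daf-4, -0.112 to 0.0103 for daf-8 and -0.0784 to 0.134 for dbl-1. For daf-8, daf-2lf minus wild type ranged from -0.37 to 0.25 and the difference of the skn-1gf effects from -0.29 to 0.34, and the latter ranged from -0.145 to 0.122 for sma-2. The cause was not tested.

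Quality weights, in which daf-2lf replicate 1 had a weight of 0.0366, called 11743 genes in skn-1gf against wild type (6787 in the reported fit), 2113 in the double mutant against daf-2lf (253), 10101 in the double mutant against skn-1gf (4944) and 9444 for the difference of the effects (4308). They called 1 and 8 of the 10 genes in the double mutant against daf-2lf and for the difference, and 46, 46, 9, 40 and 38 of the 57 pathway genes, in the order skn-1gf and daf-2lf against wild type, the double mutant against daf-2lf and against skn-1gf, and the difference (27, 29, 0, 20 and 14). Between the double mutant and daf-2lf DESeq2 called 550 genes and the fit of the groups compared 109. That fit called 31 pathway genes in the double mutant against skn-1gf. The length trend called 2 of the 10 genes there and 22 pathway genes for the difference. With 1 library left out, genes called ranged from 139 (without double mutant replicate 1) to 469 (without daf-2lf replicate 3) in the double mutant against daf-2lf and from 2786 (without wild-type replicate 1) to 5921 for the difference, and pathway genes from 0 to 2, 16 to 35 and 9 to 25 in the last 3 comparisons, the highest of the latter pair both without daf-2lf replicate 1.

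Same-numbered libraries of different genotypes correlated at -0.129 to 0.296 over 18 pairs, and differently numbered ones at -0.304 to 0.177 over 36. The highest value was that of replicate 3 of skn-1gf and daf-2lf, and these ranges do not settle whether the numbers pair the libraries. The labels do not say that they do, so the pairing was used in an alternative only. A replicate block called 6618, 7918, 211, 4727 and 4080 genes, 6, 7, 0, 4 and 4 of the 10, and 26, 29, 0, 22 and 13 pathway genes in the 5 comparisons. Of 51 results of named pathway genes, 41 were called in every alternative. The lowest count of the 10 genes was 28, for daf-7 in skn-1gf replicate 2.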
